A study of Danio rerio with 12 samples.

Results

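The genes described here are the epidermal growth factor (EGF) family ligands hbegfa, hbegfb, tgfa, egf and nrg1 and the ErbB receptors egfra, erbb2, erbb3a, erbb3b and erbb4a, 10 of the 31953 genes in the deposited count table of adult zebrafish brain cells. They were found by gene symbol, with the paralog letter dropped where the table's names lack it, so that HBEGF is hbegfb, EGFR is egfra and ERBB3 is erbb3a. The name ERBB4 belongs to 2 gene models on chromosome 1 that lie among the neighbours of erbb4a and to a further model on chromosome 9 that lies among those of erbb4b. Both chromosome 1 models were kept as erbb4a, which makes 11 gene models for the 10 members, and 10 of these models passed the filter on low counts. The family was chosen by values of these data, among which hbegfa was known to stand higher after AB42, and whether values of other members entered the choice is not recorded. The AB42 values of hbegfa and of its paralog hbegfb are therefore given as a description with no test. The other 8 members are reported with their adjusted p over all genes tested, which may not be independent of the choice.

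All fish carried Tg(her4.1:EGFP), in which the promoter of the Notch target her4.1 drives EGFP in radial glia, and were 6 months old. Their brains were injected with the amyloid peptide AB42 or with the control peptide that the labels call CPP, taken at 48 hours, dissociated and sorted on GFP. The 4 groups of 3 libraries were AB42 GFP-positive, CPP GFP-positive, AB42 GFP-negative and CPP GFP-negative cells, so every group had received an injection and no uninjected brain was analysed here. The labels do not say how many brains made up a library or whether replicates were different fish. The p-values therefore measure the spread between libraries alone, which may be technical.

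ErbB receptors are cell-surface tyrosine kinases that work in pairs. The ligands are made as membrane-anchored precursors, ADAM metalloproteases cut many of them free, and bound receptors signal through RAS and ERK, PI3-kinase and AKT, and STAT3. HB-EGF, TGF-alpha and EGF bind the EGF receptor, and HB-EGF and the neuregulins bind ErbB4, while ErbB2 has no known soluble ligand and serves as the partner of the others. In the injured zebrafish retina, hbegfa is known as a factor that Müller glia need to return to a dividing state.

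Total counts ran from 9262838 to 15584769 per library. The her4.1 gene, whose promoter drives the reporter, averaged 1892 ± 120.3 CPM (counts scaled to a common library size after TMM) in AB42 GFP-positive, 2277 ± 176 CPM in CPP GFP-positive, 28.9 ± 1.03 CPM in AB42 GFP-negative and 32.3 ± 1.49 CPM in CPP GFP-negative cells (SD, n = 3 each). All 12 radial glia genes tested were higher and all 12 neuron genes tested were lower in GFP-positive than in GFP-negative cells, after either injection, and the mural cell gene PDGFRB was at 0 in every library. In the edgeR fit 1256 genes were higher and 2523 lower after AB42 in GFP-positive cells, and 4239 higher and 3494 lower in GFP-negative cells. GFP-positive cells had 7517 genes higher and 7265 lower than GFP-negative cells after CPP, and 7286 higher and 7622 lower after AB42. The difference of the AB42 effects, GFP-positive minus GFP-negative, was positive for 1105 genes and negative for 3334. These splits depended on the scaling between libraries, and with library totals alone they were, in the same order, 2112 and 1769, 3191 and 5463, 4630 and 10673, 5452 and 9280, and 3248 and 2109. That scaling put the median log2 difference of all genes between the fractions at -0.47 after CPP and -0.26 after AB42, against 0.01 and -0.01 with TMM, and the median AB42 effect in GFP-negative cells at -0.14, against -0.01.

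The HB-EGF paralogs were divided between the sorted fractions. Transcripts of hbegfa were most abundant in GFP-positive cells and those of hbegfb in GFP-negative cells, and after AB42 each paralog stood higher in the fraction where it was already the more abundant of the pair. In the other fraction, hbegfa was also higher after AB42 and hbegfb was lower. HB-EGF is a heparin-binding ligand of the EGF receptor and of ErbB4.

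hbegfa (ENSDARG00000075121) lies on GRCz10 chromosome 14, 6742203 to 6745213 on the plus strand, in 5 exons. It had 126, 124 and 139 CPM in the 3 AB42 GFP-positive libraries, against 51.5, 51.5 and 58.8 CPM in the CPP GFP-positive ones. In GFP-negative cells it had 11.6, 10.3 and 12.1 CPM after AB42, against 7.16, 7.09 and 8.80 CPM after CPP. Every AB42 library stood above every CPP library of its fraction, and every GFP-positive library above every GFP-negative one. The fitted level after AB42 was 2.40-fold higher in GFP-positive cells (log2 1.27 ± 0.08 SE) and 1.46-fold higher in GFP-negative cells (log2 0.54 ± 0.12 SE). For the AB42 values of hbegfa and hbegfb, here and below, the SE describes the spread between libraries. It is no test, because the family was chosen by values of these data. The order of the 4 groups, from high to low, was AB42 GFP-positive, CPP GFP-positive, AB42 GFP-negative and CPP GFP-negative.

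hbegfb (ENSDARG00000031246) lies on chromosome 21, 30124600 to 30132252 on the minus strand, in 6 exons. In GFP-positive cells it had 10.3, 12.1 and 13.4 CPM after AB42, against 15.96, 16.5 and 17.1 CPM after CPP. Its levels in GFP-negative cells were 114, 112 and 127 CPM after AB42, against 27.7, 27.9 and 33.1 CPM after CPP. The libraries of the injections did not overlap in either fraction, and the direction was opposite in the fractions. The fitted level after AB42 was 1.39-fold lower in GFP-positive cells (log2 -0.48 ± 0.12 SE) and 3.95-fold higher in GFP-negative cells (log2 1.98 ± 0.09 SE). The difference between these effects was -2.46 ± 0.15 (log2, GFP-positive minus GFP-negative, SE), and that of hbegfa was 0.72 ± 0.15. Libraries of the injections failed to overlap for 32% of all genes tested in GFP-positive cells and for 48.1% in GFP-negative cells, and libraries of the fractions for 74.1% after CPP and 75.8% after AB42.

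**Figure D1:**
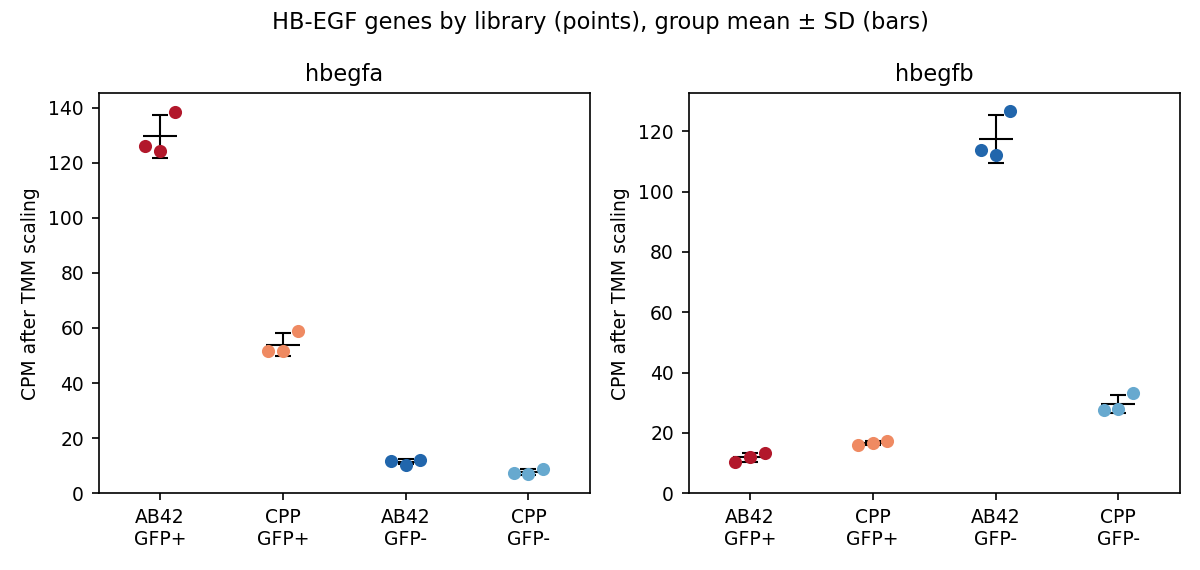
Level of hbegfa (left) and hbegfb (right) in CPM after TMM scaling, with a point for each library and bars for the group mean ± SD of 3 libraries. The AB42 GFP-positive libraries hold the highest hbegfa levels (124 to 139 CPM) and the AB42 GFP-negative libraries the highest hbegfb levels (112 to 127 CPM).

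The fractions were compared with a test after CPP only. Whether that comparison entered the choice of the family is not recorded, and it shares the CPP libraries. Its p-values may therefore not be independent of the choice. In CPP libraries hbegfa was 6.92-fold higher in GFP-positive than in GFP-negative cells (log2 2.79 ± 0.11 SE, edgeR adjusted p = 2.32e-23), and hbegfb was 1.80-fold lower (log2 -0.85 ± 0.10 SE, adjusted p = 3.64e-09). Of all genes tested, 37.1% were higher and 35.9% lower in that comparison. After AB42 hbegfa was 11.4-fold higher and hbegfb 9.90-fold lower in GFP-positive cells, given as a description.

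Per length of the gene model, the HB-EGF paralogs together reached 75.7 ± 4.82 CPM per kb in AB42 GFP-positive cells, 38.4 ± 2.56 in CPP GFP-positive cells, 76.2 ± 5.16 in AB42 GFP-negative cells and 21.7 ± 2.33 in CPP GFP-negative cells (SD, n = 3 each). After TMM scaling the sums after AB42 thus overlapped between the fractions, at 72.8 to 81.3 and 72.5 to 82.1 CPM per kb, while those after CPP did not. That overlap depended on the scaling. The TMM factors were 0.884 to 0.924 in AB42 GFP-positive and 1.07 to 1.09 in AB42 GFP-negative libraries. On library totals alone every AB42 GFP-negative sum lies above every AB42 GFP-positive sum. The makeup of the sum differed: hbegfa held 90.6 ± 0.794% of it in AB42 GFP-positive and 74.2 ± 0.956% in CPP GFP-positive cells, against 7.89 ± 0.380% in AB42 GFP-negative and 18.7 ± 0.352% in CPP GFP-negative cells.

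Several lists of cell type markers moved as well. Over all genes tested, 6.21% were higher and 12.5% lower after AB42 in GFP-positive cells, and 20.9% and 17.3% in GFP-negative cells. In GFP-positive cells neuron genes were lower after AB42 in 10 of 12, with sums of 461 to 467 CPM after AB42 and 775 to 788 CPM after CPP. Radial glia genes were higher in 2 and lower in 7 of 12 there (42218 to 45187 CPM, against 50143 to 53896 CPM). In GFP-negative cells all 9 microglia and macrophage genes tested were higher after AB42, and their summed level ran from 1878 to 1942 CPM, against 706 to 726 CPM after CPP, with none at 0. Neuron genes were lower in 11 of 12 in GFP-negative cells, with sums of 3667 to 3841 CPM after AB42 and 5726 to 5948 CPM after CPP. Genes of dissociation stress were higher after AB42 in 6 of 8 in GFP-positive cells (36537 to 36960 CPM, against 30414 to 30859 CPM) and in 8 of 8 in GFP-negative cells (29148 to 30487 CPM, against 16935 to 17193 CPM). Oligodendrocyte lineage genes were lower in 5 of 9 in GFP-positive cells (4156 to 4595 CPM, against 5695 to 6118 CPM) and higher in 7 of 9 in GFP-negative cells (17870.5 to 18537 CPM, against 13968 to 15271 CPM). Epithelial and keratinocyte genes were higher in 3 and lower in 5 of 10 in GFP-positive cells (467 to 505 CPM, against 447 to 474 CPM), with a median log2 difference of -1.77, and higher in 3 and lower in 2 in GFP-negative cells (1595 to 1789 CPM, against 1261 to 1337 CPM). Lymphocyte and neutrophil genes were lower in 4 of 6 in GFP-positive cells (4.35 to 5.54 CPM, against 32.1 to 33.98 CPM) and higher in 2 of 6 in GFP-negative cells. Endothelial and mural cell genes were higher in 2 of 6 in GFP-positive cells (24.1 to 28.2 CPM, against 16.1 to 20.3 CPM). In GFP-negative cells 3 of 6 were higher (47.6 to 54.5 CPM, against 31.2 to 35.4 CPM). Erythrocyte genes were lower in 1 of 3 in GFP-positive cells, and higher in 2 and lower in 1 in GFP-negative cells. The part of these markers in the HB-EGF values was not tested. In bulk RNA of sorted cells, a change in the number of cells of a type and a change in RNA per cell cannot be told apart.

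The 5 genes whose levels ran closest to hbegfa over the 12 libraries were FOXJ1, trim69, SERPINH1, MYL9 and LAPTM4B. Likeness was the root-mean-square difference of mean-centred log2 (CPM + 0.5), and it was 0.189 for FOXJ1, a transcription factor of ciliated cells, and between 0.266 and 0.346 for the others. FOXJ1 averaged 159.8 ± 3.56 CPM in AB42 GFP-positive, 83.9 ± 3.51 in CPP GFP-positive, 13.9 ± 1.44 in AB42 GFP-negative and 11.9 ± 0.852 in CPP GFP-negative cells. SERPINH1, a collagen chaperone, averaged 80.3 ± 7.22, 42.3 ± 4.34, 11.2 ± 1.42 and 7.43 ± 1.25 CPM in the same groups. The libraries are shared by all these genes, and the likeness is a description.

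Among the other ligands, nrg1 was the most abundant and tgfa and egf lay near the limit of detection. nrg1 (ENSDARG00000104314, chromosome 10, 7325421 to 7513659, minus strand) encodes neuregulin 1, the ligand of ErbB3 and ErbB4 known for Schwann cell development. It had 21.6, 17.0 and 18.5 CPM in AB42 GFP-positive libraries, against 17.3, 18.5 and 21.0 CPM in CPP GFP-positive ones. GFP-negative libraries had 7.31, 7.30 and 6.00 CPM after AB42, against 10.6, 9.43 and 9.40 CPM after CPP. The injections overlapped in GFP-positive cells, where the log2 difference was 0.01 with a 95% interval of -0.26 to 0.27 (edgeR adjusted p = 0.978). In GFP-negative cells nrg1 fell by 0.50 ± 0.15 on the log2 scale, to a level 1.42-fold lower (adjusted p = 0.00665). It was 1.94-fold higher in GFP-positive than in GFP-negative cells after CPP (adjusted p = 1.25e-07) and 2.76-fold higher after AB42 (adjusted p = 1.84e-11). The difference of its AB42 effects was 0.51 ± 0.20 (adjusted p = 0.0607). That difference passed the threshold with DESeq2 (adjusted p = 0.0470), with median-of-ratios size factors (0.0443) and with library totals (0.00635).

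tgfa (ENSDARG00000053939, chromosome 6, 40994873 to 41011845, plus strand) encodes transforming growth factor alpha, a ligand of the EGF receptor. It had 1, 0 and 0 counts in AB42 GFP-positive libraries, against 4, 3 and 5 counts in CPP GFP-positive ones. The GFP-negative libraries held 12, 17 and 17 counts after AB42 and 14, 14 and 24 counts after CPP, which overlapped once scaled by depth. The GFP-positive libraries after AB42 held 1 count in all against 12 after CPP, a ratio of 0.0884 (exact 95% interval 0.00207 to 0.598, for counting error only). The edgeR test called the fall (adjusted p = 0.0267), and the call was lost without AB42 GFP-positive replicate 2 (0.123) or 3 (0.0799) or CPP GFP-positive replicate 3 (0.0896). tgfa passed the low-count filter only through the GFP-negative libraries, where it is more abundant. Its tests that involve GFP-positive cells, within or between the fractions, are therefore no support for a difference. A count of 3, the floor used here, equals 0.237 to 0.326 CPM in GFP-positive libraries. After CPP tgfa was 3.46-fold lower in GFP-positive than in GFP-negative cells (log2 -1.79 ± 0.48 SE, adjusted p = 0.00119), and after AB42 the ratio of 1 to 46 counts was 0.0288 (exact 95% interval 0.000715 to 0.169).

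egf (ENSDARG00000052739, chromosome 14, 35938381 to 35985339, minus strand) encodes the family's founding ligand and did not pass the low-count filter. It had 16, 1 and 4 counts in AB42 GFP-positive, 8, 5 and 1 in CPP GFP-positive, 11, 7 and 6 in AB42 GFP-negative and 0, 4 and 8 in CPP GFP-negative libraries. These ranges overlapped throughout, so no difference was detectable at this depth.

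Per length, the ligands ranked in the order hbegfa, hbegfb and nrg1 in GFP-positive cells after either injection, and hbegfb, hbegfa and nrg1 in GFP-negative cells, with no overlap between neighbours in these orders. The 5 ligands summed to 80.4 ± 4.71 CPM per kb in AB42 GFP-positive, 43.1 ± 2.99 in CPP GFP-positive, 78.3 ± 5.001 in AB42 GFP-negative and 24.5 ± 2.32 in CPP GFP-negative cells. nrg1 made up 5.67 ± 0.804% of the sum in AB42 GFP-positive and 10.5 ± 0.387% in CPP GFP-positive cells, and 2.11 ± 0.351% in AB42 GFP-negative against 9.64 ± 1.31% in CPP GFP-negative cells. tgfa made up at most 1.77% and egf at most 0.332% of the ligand sum in any library.

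**Figure D2:**
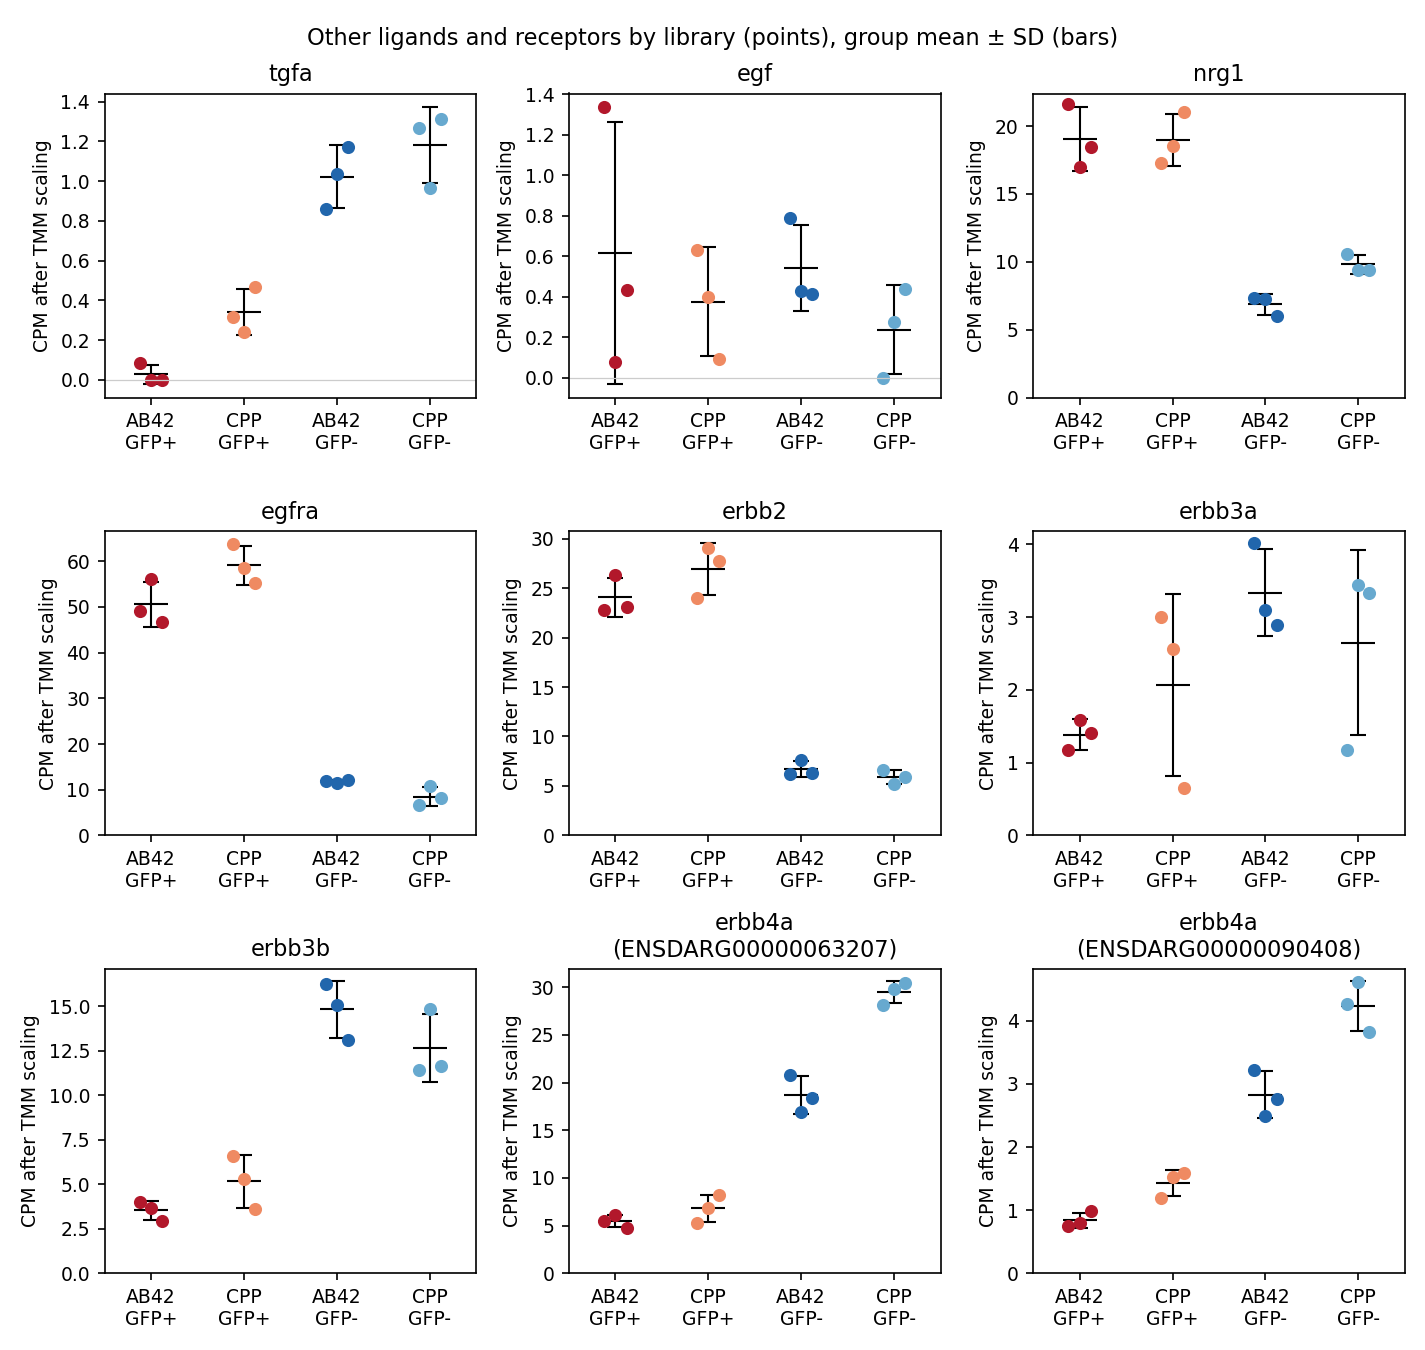
Level of the 9 gene models of the other 8 members in CPM after TMM scaling, with a point for each library and bars for the group mean ± SD of 3 libraries, each panel on its own scale from 0. The receptors egfra and erbb2 are higher in GFP-positive cells (46.6 to 63.7 and 22.8 to 29.0 CPM) and erbb3b and both erbb4a models are higher in GFP-negative cells.

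The receptor genes were divided between the fractions as well. egfra and erbb2 transcripts were concentrated in GFP-positive cells, and those of erbb3b and erbb4a in GFP-negative cells. After AB42 no receptor passed the threshold in GFP-positive cells, while egfra rose and erbb4a fell in GFP-negative cells.

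egfra (ENSDARG00000013847, chromosome 2, 3864859 to 3989336, plus strand) encodes the EGF receptor itself. It had 49.1, 56.1 and 46.6 CPM in AB42 GFP-positive libraries, against 63.7, 58.5 and 55.2 CPM in CPP GFP-positive ones. In the GFP-negative fraction it had 11.97, 11.4 and 12.1 CPM after AB42, against 6.62, 10.8 and 8.14 CPM after CPP. The injections overlapped in GFP-positive cells, and in GFP-negative cells the AB42 libraries lay just above the highest CPP library. egfra was 1.37-fold higher after AB42 in GFP-negative cells (log2 0.45 ± 0.14 SE, edgeR adjusted p = 0.00735), and the call was lost without CPP GFP-negative replicate 1 (adjusted p = 0.0876) and with library totals (0.0722). In GFP-positive cells its log2 difference was -0.22 ± 0.10 (adjusted p = 0.135). The AB42 effects of the fractions differed by -0.68 ± 0.17 (adjusted p = 0.00298, and 0.0668 with library totals). After CPP egfra was 6.87-fold higher in GFP-positive than in GFP-negative cells (adjusted p = 1.79e-21), and after AB42 4.30-fold higher (adjusted p = 2.70e-18).

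The 3 genes whose levels ran closest to egfra over the 12 libraries were LRP5, SLC35B4 and PTPRZ1, at root-mean-square differences of 0.161, 0.167 and 0.173. PTPRZ1, a receptor tyrosine phosphatase of glia, averaged 1170.1 ± 31.9 CPM in AB42 GFP-positive, 1297 ± 42.7 in CPP GFP-positive, 261 ± 9.74 in AB42 GFP-negative and 234 ± 15.3 in CPP GFP-negative cells.

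erbb2 (ENSDARG00000026294, chromosome 12, 9322473 to 9400384, minus strand) encodes the shared partner receptor. It had 22.8, 26.3 and 23.0 CPM in AB42 GFP-positive libraries, against 24.0, 29.0 and 27.7 CPM in CPP GFP-positive ones. In GFP-negative cells it had 6.24, 7.67 and 6.35 CPM after AB42, against 6.62, 5.16 and 5.96 CPM after CPP. The injections overlapped in both fractions, with log2 differences of -0.16 (95% interval -0.41 to 0.09) in GFP-positive and 0.21 (-0.11 to 0.52) in GFP-negative cells, at edgeR adjusted p = 0.412 and 0.321. Between the fractions erbb2 was 4.57-fold higher in GFP-positive cells after CPP (adjusted p = 1.64e-16) and 3.55-fold higher after AB42 (adjusted p = 1.86e-14).

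erbb3b (ENSDARG00000036993, chromosome 23, 25305870 to 25361125, plus strand) and erbb3a (ENSDARG00000006202, chromosome 6, 7309034 to 7374942, plus strand) encode neuregulin receptors with a weak kinase. In zebrafish, erbb3b is known for the migration of Schwann cells along the lateral line nerve. erbb3b had 4.01, 3.64 and 2.93 CPM in AB42 GFP-positive libraries, against 6.56, 5.28 and 3.63 CPM in CPP GFP-positive ones. Its levels in GFP-negative cells were 16.3, 15.1 and 13.1 CPM after AB42, against 11.4, 14.9 and 11.6 CPM after CPP. The injections overlapped in both fractions, at log2 differences of -0.55 ± 0.22 in GFP-positive cells (edgeR adjusted p = 0.0777) and 0.23 ± 0.16 in GFP-negative cells (0.263). Without CPP GFP-positive replicate 3 the difference in GFP-positive cells was -0.73 and passed the threshold (adjusted p = 0.0177).

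The AB42 effects on erbb3b differed between the fractions by -0.77 ± 0.27 (adjusted p = 0.0338), a call that library totals did not keep (0.155). It was also lost without AB42 GFP-positive replicate 2 or 3, CPP GFP-positive replicate 1 or 2, AB42 GFP-negative replicate 1 or 2, or CPP GFP-negative replicate 1 or 3 (adjusted p from 0.0583 to 0.174). Between the fractions erbb3b was 2.43-fold lower in GFP-positive cells after CPP (adjusted p = 7.43e-08) and 4.15-fold lower after AB42 (adjusted p = 4.79e-12). erbb3a was the less abundant paralog, with 1.39 ± 0.207 CPM in AB42 GFP-positive, 2.07 ± 1.25 in CPP GFP-positive, 3.34 ± 0.594 in AB42 GFP-negative and 2.65 ± 1.28 in CPP GFP-negative cells. CPP GFP-positive replicate 3 and CPP GFP-negative replicate 1 lay apart from their groups with 7 and 13 counts. erbb3a was 2.39-fold lower in GFP-positive than in GFP-negative cells after AB42 (adjusted p = 0.00257), while after CPP and between the injections its libraries overlapped (adjusted p from 0.325 to 0.524).

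erbb4a encodes a neuregulin and HB-EGF receptor. Its gene models are ENSDARG00000063207 (chromosome 1, 6133580 to 6241695, plus strand) and ENSDARG00000090408 (chromosome 1, 6637459 to 6765362, plus strand). Both carry the name ERBB4 in the name table, reads from near-identical copies may have been split between them, and their separate values are uncertain. ENSDARG00000063207 had 5.51, 6.09 and 4.78 CPM in AB42 GFP-positive libraries, against 5.30, 6.88 and 8.19 CPM in CPP GFP-positive ones. GFP-negative libraries had 20.8, 16.9 and 18.4 CPM after AB42, against 28.2, 29.8 and 30.4 CPM after CPP. The injections overlapped in GFP-positive cells (edgeR adjusted p = 0.272) and stood apart in GFP-negative cells, where the level after AB42 was 1.58-fold lower (log2 -0.66 ± 0.12 SE, adjusted p = 3.97e-05). ENSDARG00000090408 averaged 2.83 ± 0.370 CPM in AB42 GFP-negative and 4.23 ± 0.393 CPM in CPP GFP-negative cells and was also lower (adjusted p = 0.0446). Leaving out any GFP-negative library other than AB42 replicate 1 ended that call (adjusted p from 0.0515 to 0.160). So did DESeq2 (0.0832) and a fit with no low-count filter (0.0793).

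With the counts of the erbb4a models added together, AB42 GFP-negative libraries had 24.0, 19.4 and 21.1 CPM, against 32.5, 34.4 and 34.3 CPM in CPP GFP-negative ones. The summed level after AB42 was 1.57-fold lower (log2 -0.65 ± 0.12 SE, adjusted p = 2.26e-05), and in GFP-positive cells the log2 difference was -0.37 ± 0.16 (adjusted p = 0.120). The difference of these effects was 0.29 ± 0.20 (adjusted p = 0.346). Between the fractions the sum was 4.13-fold lower in GFP-positive cells after CPP (adjusted p = 3.48e-16) and 3.39-fold lower after AB42 (adjusted p = 1.80e-13). The neuron markers, which were lower after AB42 in 11 of 12 in GFP-negative cells, moved in the same direction there, and their part in the erbb4a value was not tested.

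Per length, erbb2 (5.87 ± 0.482 CPM per kb) and egfra (5.84 ± 0.570) led the receptors in AB42 GFP-positive cells and overlapped, as they did in CPP GFP-positive cells at 6.57 ± 0.633 and 6.83 ± 0.494. The overlap rests on the deposited lengths, 4098 bases for erbb2 and 8660 bases for egfra. In GFP-negative cells the order was the ENSDARG00000063207 model of erbb4a, erbb3b, erbb2 and egfra after either injection, with no overlap between neighbours among these 4. That erbb4a model reached 4.06 ± 0.425 CPM per kb in AB42 GFP-negative and 6.40 ± 0.252 in CPP GFP-negative cells. Its share of the receptor sum was 35.9 ± 2.28% in AB42 GFP-negative and 50.2 ± 2.25% in CPP GFP-negative cells, while erbb3b held 28.3 ± 1.65% and 21.3 ± 2.05% in the same groups. In GFP-positive cells egfra and erbb2 held 41.7 ± 0.464% and 41.9 ± 1.08% after AB42 and 41.3 ± 3.05% and 39.7 ± 3.47% after CPP. The receptor sum itself was 14.0 ± 1.21 CPM per kb in AB42 GFP-positive, 16.5 ± 0.511 in CPP GFP-positive, 11.3 ± 0.738 in AB42 GFP-negative and 12.8 ± 0.793 in CPP GFP-negative cells.

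**Figure D3:**
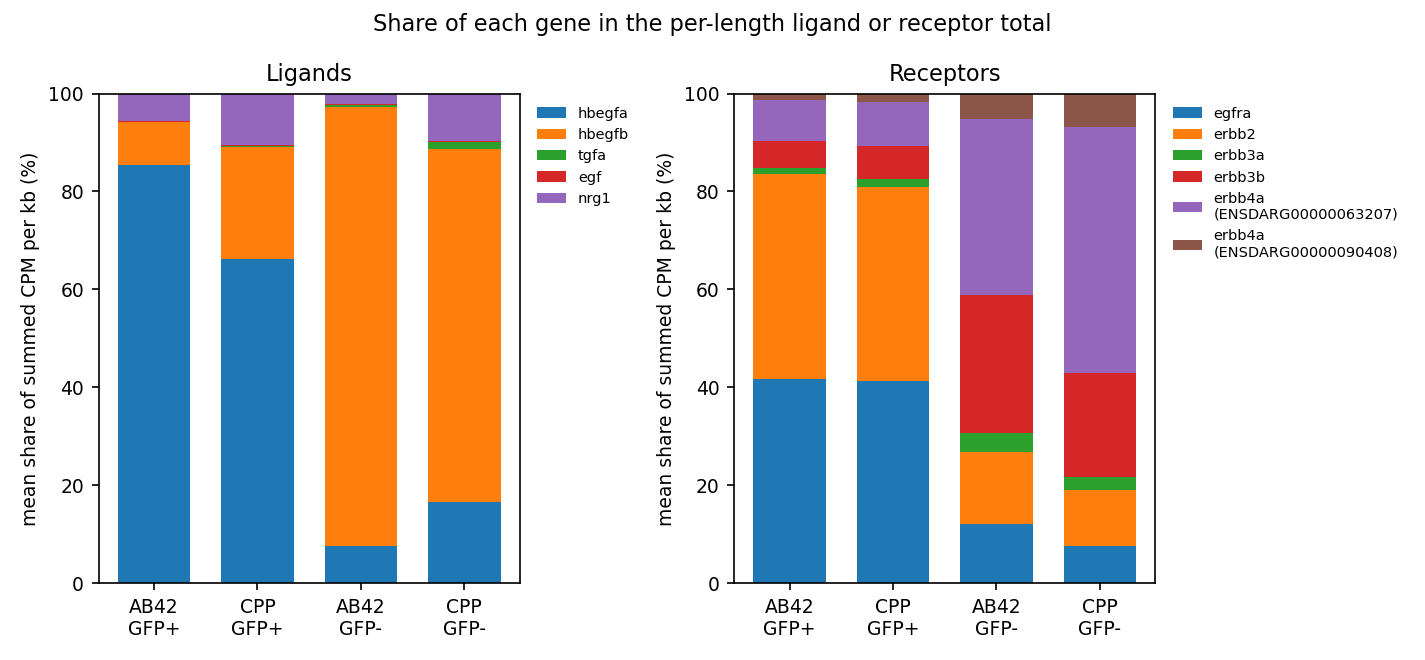
Share of each gene in the summed CPM per kb of the 5 ligands (left) and of the receptors (right), in percent, as the mean of 3 libraries in each group. hbegfa fills most of the ligand sum in GFP-positive and hbegfb in GFP-negative cells, and egfra and erbb2 fill most of the receptor sum in GFP-positive cells.

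Of the 8 gene models tested beyond the HB-EGF pair, 1 was lower (tgfa) and 0 were higher after AB42 in GFP-positive cells, against 12.5% and 6.21% of all genes tested. That 1 gene passed the low-count filter only through the GFP-negative libraries. At an unadjusted edgeR p under 0.05, 4 were lower (tgfa, egfra, erbb3b and ENSDARG00000090408) and 0 higher. The share of all genes at that unadjusted threshold is not given here, so the shares above do not apply to it. DESeq2 called 0 in either direction, with no adjusted p for tgfa, against 1255 higher and 2298 lower of 20237 genes. In GFP-negative cells 3 were lower (nrg1 and both erbb4a models) and 1 was higher (egfra), against 17.3% and 20.9% of all genes. Between the fractions 3 were higher in GFP-positive cells (nrg1, egfra, erbb2) and 4 lower after CPP (tgfa, erbb3b and both erbb4a models), where 37.1% of all genes were higher and 35.9% lower. After AB42, 3 were higher and 5 lower (those 4 and erbb3a), where 36% of all genes were higher and 37.7% lower. Both lower counts include tgfa, whose tests between the fractions are no support for a difference. For the difference of the AB42 effects, 2 were negative (egfra, erbb3b) and 0 positive, against 16.5% and 5.46% of all genes. At an unadjusted edgeR p under 0.05, 1 was positive (nrg1), again with no share of all genes given at that threshold. DESeq2 called 1 positive, against 1279 of 20237 genes. With 8 gene models, nothing is read from these counts about the family as a whole.

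**Figure D4:**
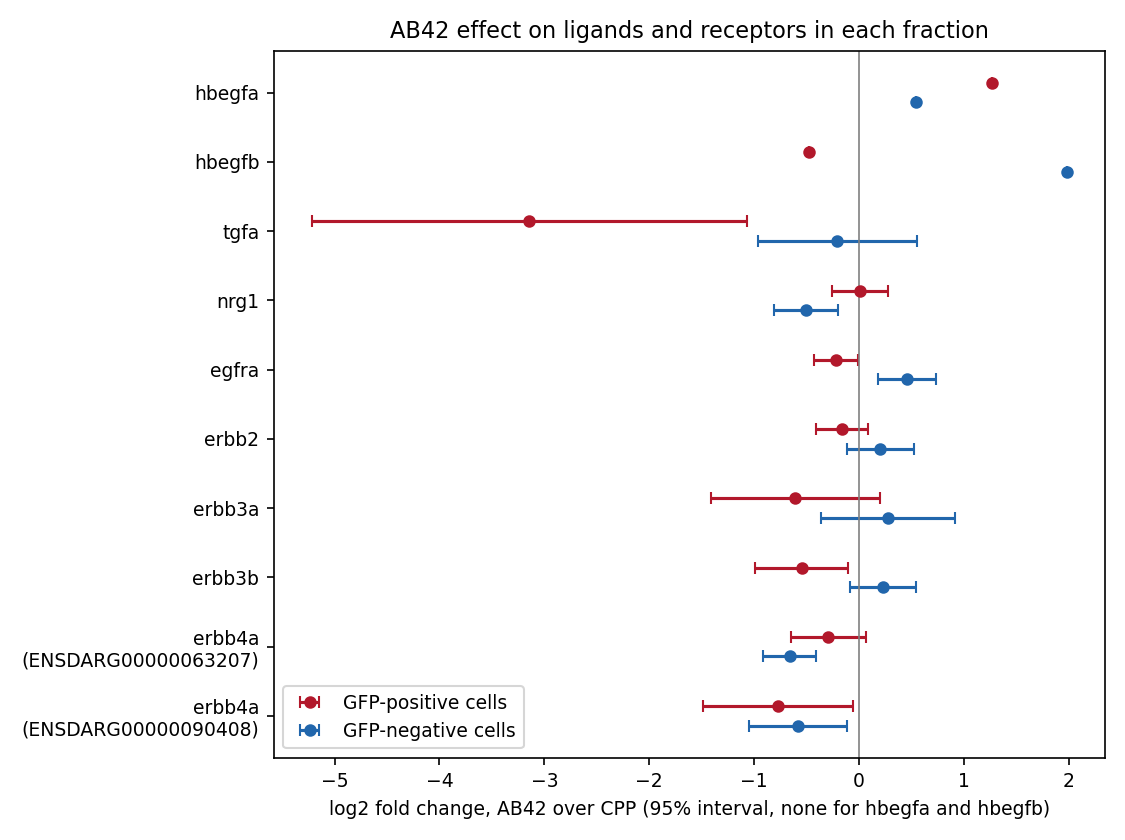
Fitted log2 fold change of AB42 over CPP in GFP-positive cells (red, upper of each pair) and GFP-negative cells (blue), with 95% intervals from the edgeR fit for the other genes. The hbegfa and hbegfb points are a description and carry no interval, at 1.27 and -0.48 in GFP-positive and 0.54 and 1.98 in GFP-negative cells. The wide tgfa interval in GFP-positive cells rests on 1 count after AB42, so its fitted value is no bound.

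Of 11 symbols of EGF-family genes outside the members, 7 matched and 6 genes were tested. After AB42, 2 were lower and 0 higher in GFP-positive cells, against 12.5% and 6.21% of all genes, and 2 were lower and 0 higher in GFP-negative cells, against 17.3% and 20.9%. In either fraction 0 were higher at an unadjusted edgeR p under 0.05 or with DESeq2, and each count of 2 was 1 to 2 with a library left out. DESeq2 called 1255 of 20237 genes higher in GFP-positive and 3783 in GFP-negative cells. The share at the unadjusted threshold is not given. nrg3b, a neuregulin of neurons, lay between 8.62 and 11.02 CPM in AB42 GFP-positive and between 14.2 and 16.1 CPM in CPP GFP-positive libraries and was 1.48-fold lower (edgeR adjusted p = 0.00280). In GFP-negative cells it averaged 22.3 ± 0.312 CPM after AB42 and 22.1 ± 3.05 CPM after CPP, and the difference of the effects was -0.57 ± 0.18 (adjusted p = 0.0203). That call was lost with library totals (0.181) and without AB42 GFP-positive replicate 2, CPP GFP-positive replicate 2, AB42 GFP-negative replicate 3 or CPP GFP-negative replicate 1 (0.0571 to 0.108). The neuregulin gene NRG2 (ENSDARG00000086585) was 1.33-fold lower in GFP-positive (adjusted p = 0.0353) and 1.37-fold lower in GFP-negative cells (adjusted p = 0.00263), with overlapping libraries in GFP-positive cells. Its GFP-positive call was lost with library totals (0.143) and with only the libraries compared (0.0998). It was also lost without AB42 GFP-positive replicate 2 or 3, CPP GFP-positive replicate 1 or 2, AB42 GFP-negative replicate 3 or CPP GFP-negative replicate 1 or 2 (0.0715 to 0.209). The second gene of that name (ENSDARG00000077818) did not pass in either fraction (0.603 and 0.323). epgn, the ligand epigen, averaged 0.763 ± 0.0954 CPM in AB42 GFP-negative and 1.54 ± 0.101 CPM in CPP GFP-negative cells (adjusted p = 0.0444). The epgn call was lost with DESeq2 (0.123), with no low-count filter (0.0565) and with a replicate block (0.0502). It was also lost without any single GFP-negative library or AB42 GFP-positive replicate 1 (0.0526 to 0.138). The betacellulin gene btc and erbb4b (ERBB4, ENSDARG00000089536) passed in neither fraction, and areg, the amphiregulin gene, had at most 7 counts in a library and was not tested.

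Genes of ligand shedding and release, 17 in all, were higher in 2 and lower in 2 after AB42 in GFP-positive cells and higher in 7 and lower in 3 in GFP-negative cells, with a median log2 difference of -0.03 and 0.32, against -0.06 and -0.01 over all genes. Of all genes, 6.21% were higher and 12.5% lower in GFP-positive cells, and 20.9% higher and 17.3% lower in GFP-negative cells. The 2 higher in GFP-positive cells became 0 without AB42 GFP-positive replicate 1 or 2 and 1 without CPP GFP-positive replicate 3. The metalloprotease gene adam10a was 1.16-fold higher after AB42 in GFP-positive cells (edgeR adjusted p = 0.0229), a call that was lost without AB42 GFP-positive replicate 1 or 2 or CPP GFP-positive replicate 1 (0.0507 to 0.131). Its GFP-negative mean was 153 ± 9.46 CPM after AB42 and 103 ± 8.43 CPM after CPP, 1.49-fold higher (8.42e-09). RHBDF1 (ENSDARG00000036541), an inactive rhomboid that controls the sheddase ADAM17, did not pass in GFP-positive cells (log2 0.28, adjusted p = 0.0785). The GFP-negative libraries averaged 49.1 ± 5.34 CPM after AB42 and 25.2 ± 4.08 CPM after CPP, 1.96-fold higher (adjusted p = 2.91e-09). cd9b, which encodes a tetraspanin that binds the HB-EGF precursor in mammals, was 1.30-fold higher after AB42 in GFP-negative cells (adjusted p = 2.41e-06), and its paralog cd9a was 1.34-fold lower (1.87e-05). The other RHBDF1 gene (ENSDARG00000017367) was 4.18-fold higher in GFP-positive than in GFP-negative cells after CPP (adjusted p = 1.33e-15).

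Adaptors and kinases downstream of ErbB, 39 genes, were higher in 4 and lower in 5 after AB42 in GFP-positive cells and higher in 14 and lower in 5 in GFP-negative cells (median log2 differences -0.0047 and 0.22). The shares of all genes were 6.21% higher and 12.5% lower in GFP-positive cells and 20.9% and 17.3% in GFP-negative cells. With library totals, 6 were higher and 3 lower in GFP-positive cells and 11 higher and 8 lower in GFP-negative cells. Over all 20237 genes, that setting gave 2112 higher and 1769 lower in GFP-positive cells, and 3191 and 5463 in GFP-negative cells. In GFP-positive cells the count lower was 3 with any of 9 libraries left out, the exceptions being AB42 GFP-positive replicate 3, CPP GFP-positive replicate 2 and CPP GFP-negative replicate 3, and the count higher was 3 to 6. STAT3, a transcription factor that ErbB receptors and cytokine receptors activate, averaged 103 ± 9.65 CPM in AB42 GFP-positive and 74.5 ± 7.20 CPM in CPP GFP-positive cells, 1.38-fold higher (edgeR adjusted p = 0.000164). In GFP-negative cells it averaged 67.9 ± 9.58 CPM after AB42 and 38.8 ± 3.39 CPM after CPP, 1.75-fold higher (6.11e-09). MAP2K1, the kinase that activates ERK, fell in both fractions, 1.35-fold in GFP-positive (0.000227) and 1.48-fold in GFP-negative cells (1.97e-08). The AKT kinase gene akt2 (ENSDARG00000011219) averaged 34.3 ± 2.99 CPM in AB42 GFP-positive and 56.8 ± 7.97 CPM in CPP GFP-positive cells, but 43.3 ± 2.62 CPM in AB42 GFP-negative and 23.5 ± 1.24 CPM in CPP GFP-negative cells. It was thus 1.66-fold lower and 1.85-fold higher after AB42, and the effects differed by -1.61 ± 0.14 (adjusted p = 1.83e-11). shc2, an adaptor that docks on ErbB receptors, was 3.49-fold higher in GFP-negative cells (5.86 ± 0.454 CPM after AB42, 1.63 ± 0.578 CPM after CPP, adjusted p = 2.36e-07).

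Of 34 ERK target and feedback genes tested, 7 were higher and 8 lower after AB42 in GFP-positive cells, against 6.21% and 12.5% of all genes, with a median log2 difference of -0.0008. In GFP-negative cells 22 were higher and 4 lower, against 20.9% and 17.3% of all genes, with a median of 0.48. With library totals, 10 were higher and 7 lower in GFP-positive cells and 18 higher and 4 lower in GFP-negative cells. Of all 20237 genes, 2112 were then higher and 1769 lower in GFP-positive cells, and 3191 and 5463 in GFP-negative cells. FOSL1, an AP-1 subunit, averaged 259 ± 7.93 CPM in AB42 GFP-positive and 174 ± 7.88 CPM in CPP GFP-positive cells, 1.49-fold higher (edgeR adjusted p = 8.36e-09). Its GFP-negative mean was 115 ± 6.40 CPM after AB42 and 35.6 ± 2.44 CPM after CPP, 3.21-fold higher (7.33e-21). The AP-1 gene JUNB (ENSDARG00000104773) did not pass in GFP-positive cells (0.619) and was 1.74-fold higher in GFP-negative cells (1.24e-18). Another JUNB gene (ENSDARG00000074378) was called higher in GFP-positive cells, a call lost with no low-count filter (0.0601). That call was also lost without any single AB42 GFP-positive library, CPP GFP-positive replicate 1 or 2, or AB42 GFP-negative replicate 1 (0.0515 to 0.130). DUSP1, a phosphatase that switches off ERK and its relatives, averaged 379 ± 16.8 CPM in AB42 GFP-positive and 488 ± 19.5 CPM in CPP GFP-positive cells, 1.29-fold lower (3.46e-06). The GFP-negative libraries averaged 507 ± 19.1 CPM after AB42 and 298 ± 14.7 CPM after CPP, 1.70-fold higher (3.77e-14). The ETS factor gene etv5a went against the list's median, at 151 ± 3.38 CPM in AB42 GFP-negative and 398 ± 17.2 CPM in CPP GFP-negative cells, 2.64-fold lower (7.80e-21). Among the 4 lower there were also its paralog etv5b (1.39-fold, 1.12e-07) and spred2a (1.44-fold, 0.00727).

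The difference of the AB42 effects, GFP-positive minus GFP-negative, was negative for 19 of these 34 genes and positive for 1, etv5a, against 16.5% and 5.46% of all genes. With library totals, which turned the split over all genes to 2109 negative and 3248 positive, 14 were negative and 5 positive. The positive count was 2 with DESeq2, 3 without CPP GFP-negative replicate 1, and 2 without AB42 GFP-positive replicate 3, CPP GFP-positive replicate 2 or CPP GFP-negative replicate 2. Between the fractions after CPP, 22 of the 34 were higher and 7 lower in GFP-positive cells, against 37.1% and 35.9% of all genes. The largest fold there was that of MYC (ENSDARG00000007241), a growth regulator, at 1125 ± 32.8 CPM in CPP GFP-positive and 93.9 ± 1.56 CPM in CPP GFP-negative cells, followed among the genes named by SPRY2, a feedback inhibitor of receptor tyrosine kinase signalling, at 412 ± 4.57 and 38.9 ± 5.36 CPM. Many of these genes also respond to cell dissociation. In GFP-negative cells the stress markers given above were higher after AB42 in 8 of 8, the direction of most ERK targets there. In GFP-positive cells 6 of 8 stress markers were higher, while the ERK list was split, with 7 higher and 8 lower. The part of the stress markers was not tested.

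Inhibitors and turnover genes of ErbB receptors were higher in 5 and lower in 0 of 18 tested after AB42 in GFP-positive cells (0 lower also at an unadjusted edgeR p under 0.05 and with DESeq2), and higher in 4 and lower in 3 in GFP-negative cells. Of all genes, 6.21% were higher and 12.5% lower in GFP-positive cells, and 20.9% and 17.3% in GFP-negative cells, at the adjusted edgeR threshold. DESeq2 called 2298 of 20237 genes lower in GFP-positive cells, and the share at the unadjusted threshold is not given. The 5 higher in GFP-positive cells became 3 without AB42 GFP-positive replicate 1 or 2 or CPP GFP-positive replicate 3. Both SOCS3 genes encode inhibitors of cytokine and receptor signalling, and ENSDARG00000026611 averaged 331 ± 7.34 CPM in AB42 GFP-positive and 203 ± 3.11 CPM in CPP GFP-positive cells, 1.63-fold higher (edgeR adjusted p = 1.50e-11). In GFP-negative cells it averaged 74.5 ± 3.63 CPM after AB42 and 34.4 ± 2.07 CPM after CPP, 2.17-fold higher (4.83e-16). SOCS2 was 1.91-fold higher in GFP-positive cells (0.000195). The receptor phosphatase gene ptprja averaged 32.9 ± 1.20 CPM in AB42 GFP-negative and 15.5 ± 2.04 CPM in CPP GFP-negative cells, 2.12-fold higher (6.99e-09), and RNF41, a ubiquitin ligase that degrades ErbB3 in mammals, was 1.47-fold lower there (9.78e-05). LRIG1, a membrane protein that promotes the loss of ErbB receptors, showed an 18.2-fold difference between the fractions after CPP, at 109 ± 10.1 CPM in GFP-positive and 6.02 ± 0.675 CPM in GFP-negative cells (1.89e-28).

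**Figure D5:**
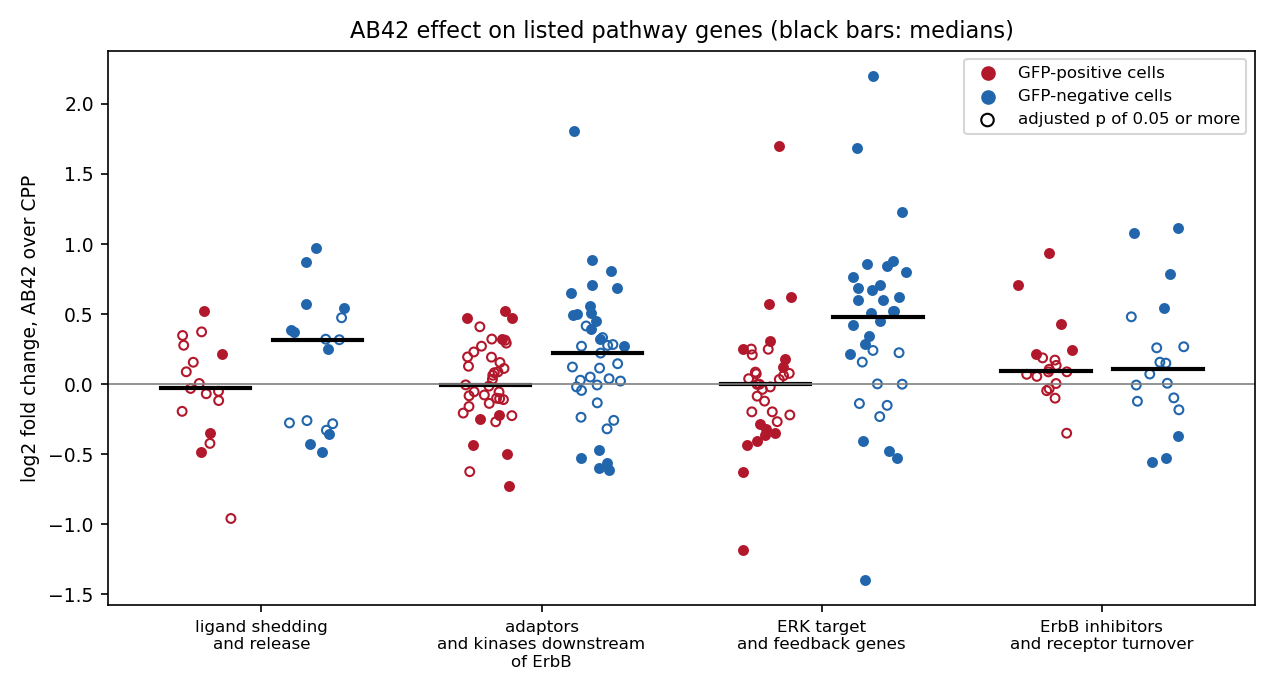
Fitted log2 fold change of AB42 over CPP for each tested gene of 4 pathway lists in GFP-positive cells (red, left of each pair) and GFP-negative cells (blue), with filled points past the adjusted p threshold of 0.05 and black bars at the medians. In the ERK target list the GFP-positive points lie on both sides of 0 (7 of 34 higher, 8 lower) and the GFP-negative ones sit mainly above it (22 higher, 4 lower).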

How the data were processed

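RNA of 12 libraries was measured by sequencing. Per the labels' protocols, cDNA was primed with poly-dT, amplified by PCR and sequenced as single-end reads of 75 bases. The authors deposited raw read counts per Ensembl gene, made with BWA 0.7.12 and featureCounts on GRCz10 (danRer10), per the submitters' processing notes; no source used here states the strand setting, multi-mapping rule or annotation release. PCR copies were counted as reads, without molecular identifiers, so intervals and floors cover counting error only.

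The counts were tested with edgeR 4.0.16 in R 4.3.3 (limma 3.58.1): filterByExpr over 4 groups (20237 genes kept), TMM scaling, a quasi-likelihood fit of 4 group means to all 12 libraries (8 residual degrees of freedom before moderation), and Benjamini-Hochberg adjustment over all genes tested, with a threshold of 0.05. The standard error is the log2 fold change divided by the square root of F, and fold changes carry a prior count of 0.125. The 5 comparisons set AB42 against CPP within a fraction, the fractions against each other within an injection, and the AB42 effects of the fractions against each other. CPM per kb divides by the deposited gene length, and levels of different genes are compared only on that scale. Orders, sums and shares of different genes therefore depend on these lengths. Whether reads covered the gene models evenly was not tested. The floor is 3 counts per library.

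The members, gene lists, markers and tests were chosen with earlier results of these data known. The text names all members, all matched genes of the list of other EGF-family genes, genes with the smallest p in each direction of the other 4 lists (at most 3 per comparison, of which a selection is given), and the genes nearest to hbegfa and egfra. The JUNB gene ENSDARG00000074378 is named beside the other gene of that name. No gene set test was run. Alternatives were DESeq2 1.42.0, median-of-ratios factors, library totals, no filter, only the libraries compared, a replicate block, leaving out each library, and, added after the data were seen, the erbb4a models summed. The edgeR step was tested on simulated counts. Coordinates are those of the deposited table; sequences are not printed. Some single-gene values of the adaptor and kinase list are not reported here.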

Additional observations from a re-analysis of the deposited data

Results flagged for a closer look

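For the genes below the AB42 effects in the fractions differed, each value being the effect in GFP-positive cells minus that in GFP-negative cells on the log2 scale. For hbegfb the value was -2.46, because every GFP-positive library was lower and every GFP-negative library higher after AB42, and this difference was not tested. The other differences given here passed the edgeR test at an adjusted p under 0.05. Among the receptors it was -0.68 for egfra and -0.77 for erbb3b, and among the neuregulins it was -0.57 for nrg3b.

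Among genes of ligand shedding it was 0.78 for ADAM15, 0.43 for adam19b, -0.49 for cd9b, -0.69 for RHBDF1 (ENSDARG00000036541) and -0.46 for FURIN (ENSDARG00000062909). Among adaptors and kinases it was 0.59 for MAP2K2, -0.68 for PIK3CB, -1.61 for akt2 (ENSDARG00000011219) and -1.86 for shc2. Of these, akt2 was lower in GFP-positive cells and higher in GFP-negative cells after AB42, both past the threshold. Among ERK target and feedback genes it was 1.08 for etv5a, -1.20 for ier2a, -1.13 for DUSP1 and -0.77 for JUNB (ENSDARG00000104773). Among inhibitors it was 0.69 for RNF41, -0.62 for ptpn1, -0.99 for ptprja and -0.41 for SOCS3 (ENSDARG00000026611).

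Of the differences outside the members, that of adam19b was lost without any of 7 libraries (AB42 GFP-positive replicates 1 and 3, CPP GFP-positive replicates 1 and 3, AB42 GFP-negative replicate 1 and CPP GFP-negative replicates 2 and 3; adjusted p from 0.0539 to 0.133). That of ADAM15 was lost without AB42 GFP-positive replicate 1 or 2, CPP GFP-positive replicate 3 or CPP GFP-negative replicate 3 (0.0514 to 0.0774). With library totals FURIN (0.171) and SOCS3 (0.134) no longer passed, and with no low-count filter adam19b did not (0.0834).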

How the results depend on the processing

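The fold changes of the members in the fit were counted as the same in 273 of 293 values with another setting and in 566 of 600 with a library left out. For tested differences, this meant the same direction and the same side of the threshold. The untested values of hbegfa and hbegfb have no side of the threshold. They accounted for the values counted as moved, 6 with another setting and 5 with a library left out, and kept their direction. Directions that turned were all of differences that had not passed: nrg1 in GFP-positive cells after AB42 (-0.0038 with no filter on low counts, and -0.096 to 0.090 with a library left out), erbb3a in GFP-negative cells after AB42 (-0.047 to 0.47 with a library left out, negative without CPP GFP-negative replicate 1), erbb3a between the fractions after CPP (-0.75 to 0.019, positive without CPP GFP-positive replicate 3) and the difference of the AB42 effects on ENSDARG00000090408 (0.040 with library totals). Of the 8 gene models tested beyond the HB-EGF pair, the count lower after AB42 in GFP-positive cells was 1 (tgfa). It was 0 with DESeq2, which gave tgfa no adjusted p, and 0 with only the libraries compared. That setting leaves out the GFP-negative libraries, through which alone tgfa passed the low-count filter, so tgfa was not tested there. The count was 2 with a replicate block and 0 to 1 with a library left out. Over all genes 2523 were lower, against 2298 with DESeq2, 1792 of 17918 with only the libraries compared and 2871 with the block. The count higher in GFP-negative cells was 1, against 0 with library totals and 0 to 1 with a library left out. Over all genes it was 4239, against 3191 with library totals. For the difference of the effects, the positive count was 0, against 1 with DESeq2, 1 with median-of-ratios factors, 2 with library totals and 0 to 1 with a library left out. The negative count was 2, against 0 with library totals and 1 to 3 with a library left out. Over all genes 1105 were positive, against 1279 with DESeq2, 1352 with median-of-ratios factors and 3248 with library totals. The negative count over all genes was 3334, against 2109 with library totals. erbb3a passed between the fractions after CPP with library totals (adjusted p = 0.0341) and without CPP GFP-negative replicate 1 (0.0434). Same-numbered libraries deviated together at a correlation over 0.1 in 0 of 18 pairs (range -0.0173 to 0.0575). Pairs of replicate 3 were all positive, from 0.0394 to 0.0575. A replicate block gave 1485 genes higher and 2871 lower after AB42 in GFP-positive cells, against 1256 and 2523 without it. Whether replicate numbers pair the samples is not settled by these values. With the replicate block erbb3b passed in GFP-positive cells (0.0488) and ENSDARG00000090408 did not in GFP-negative cells (0.0514). Depth limits egf, areg and tgfa, whose libraries hold few counts.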
